A study of Oryza sativa with 24 samples.

Results

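Antioxidant enzymes that protect the drying rice seed were described here as 10 genes: catalases A, B and C, 3 superoxide dismutases, ascorbate peroxidases 1 and 2, and a pair of 1-Cys peroxiredoxins. They were chosen by gene ID from a list of these enzymes, out of 17780 genes listed in any table of the series. All 10 were present in the embryo tables, which list 16897 of those genes, and all 10 in the endosperm tables, which list 14049. The enzyme names come with that list and were not checked against a sequence or an annotation. The seeds came from japonica rice accessions that differ in pre-harvest sprouting, which is germination of the grain on the panicle: Jowoon resists it and Gopum sprouts readily. Both are wild-type, field-grown plants, and embryo and endosperm of each were sampled at 30, 45 and 60 days from heading. By the labels, each combination of accession, organ and sampling day has 2 libraries, which makes 24 in 12 groups. The methods of the study name more replicates than the labels list, and state that RNA was pooled from seeds of several plants.

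The value used for each gene is the authors' mean log2 CPM, the log2 of its read count scaled to CPM, the unit of counts relative to library size. The embryo value of a gene did not vary among the 3 embryo tables, nor the endosperm value among the 3 endosperm tables. Each value thus averages all libraries of its tissue and belongs to no single stage or accession. The tables as used here give no value for a single library, so no SD, n or test accompanies the levels, and sequencing depth is unknown. The other columns hold the authors' own comparison of Jowoon with Gopum and were not used here, so the text compares embryo with endosperm and makes no statement on the accessions or the stages. Gene lengths were not used either. A CPM therefore counts reads and does not rank genes by transcript number.

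Respiration and drying produce superoxide and hydrogen peroxide in a seed. Superoxide dismutases turn superoxide into hydrogen peroxide, and the cell then removes the peroxide by separate routes. Catalases break it down directly in peroxisomes, ascorbate peroxidases reduce it with ascorbate as the electron donor, and peroxiredoxins reduce peroxides through a reactive cysteine. The 1-Cys peroxiredoxins are known from barley and Arabidopsis as proteins of the embryo and the aleurone, the living outer layer of the endosperm.

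All 10 genes had a higher deposited mean log2 CPM in embryo than in endosperm, but most genes did. Over the 13166 genes present in both tissues, the median of embryo minus endosperm was 1.32 on the log2 scale. The authors scaled each tissue in its own right, and the 10 genes with most reads took 11.1% of the CPM in embryo and 43.5% in endosperm. Without those genes, the CPM left in each tissue differed by 0.65 on the log2 scale, which is less than 1.32. Because the tissues were scaled separately, each difference is given below after the median of 1.32 is taken off. The position of the median gene is then 0. On this centred scale, 4 of the 10 genes lay above 0 and 6 lay below it, and their median was -0.24. Ascorbate peroxidase 1 was the only one of the 10 at least 2-fold higher in embryo (975 of 13166 genes, or 7.41%, were), and 0 were at least 2-fold lower in embryo, against 15.8% of all shared genes. Without centring, 5 of the 10 were at least 2-fold higher in embryo, as were 65.8% of shared genes, and all 10 lay above 0. With rescaling that left out the 10 genes with most reads in each tissue, 3 were, as were 31.9% of shared genes. On the centred scale, the 9 members other than ascorbate peroxidase 1 ranged from -0.76 to 0.52. The lower and upper quartiles of all shared genes were -0.57 and 0.46.

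**Figure D1:**
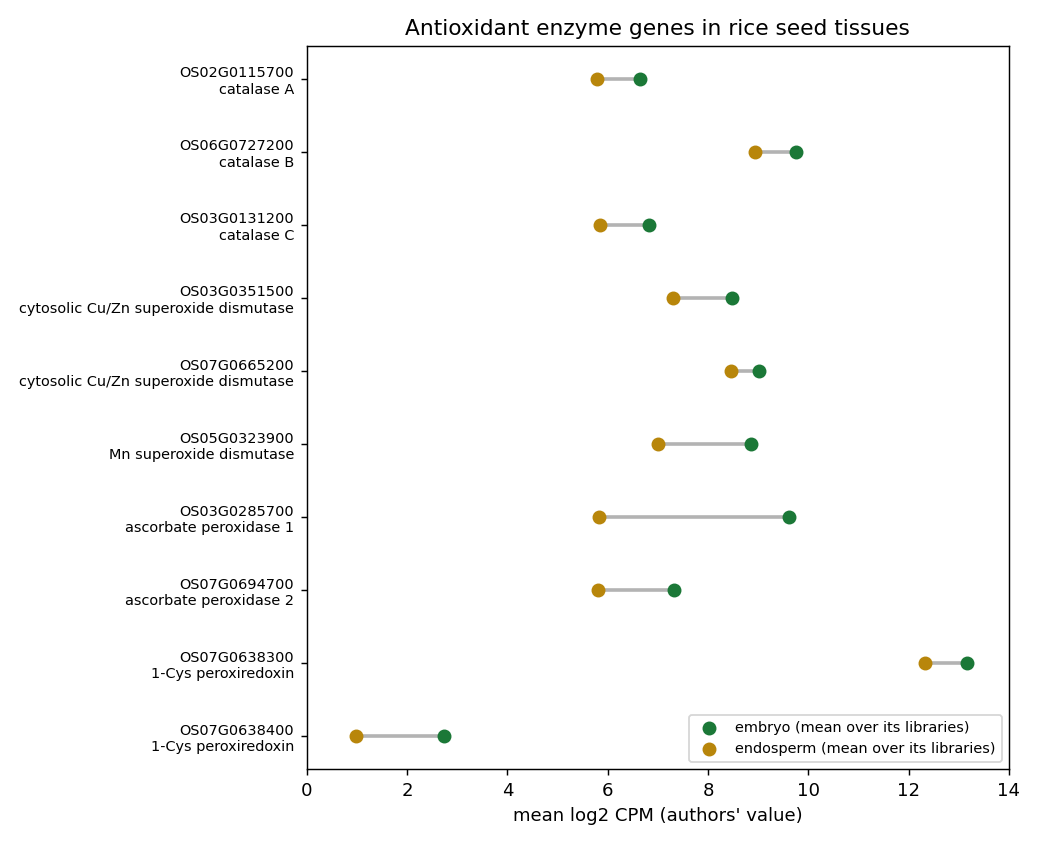
Mean log2 CPM (horizontal axis) of the 10 antioxidant enzyme genes, 1 row per gene, in embryo (green) and endosperm (gold). Each point is the authors' mean over the libraries of a tissue, so there are no error bars; the widest gap is that of OS03G0285700, ascorbate peroxidase 1, at 9.62 in embryo and 5.82 in endosperm.

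**Figure D2:**
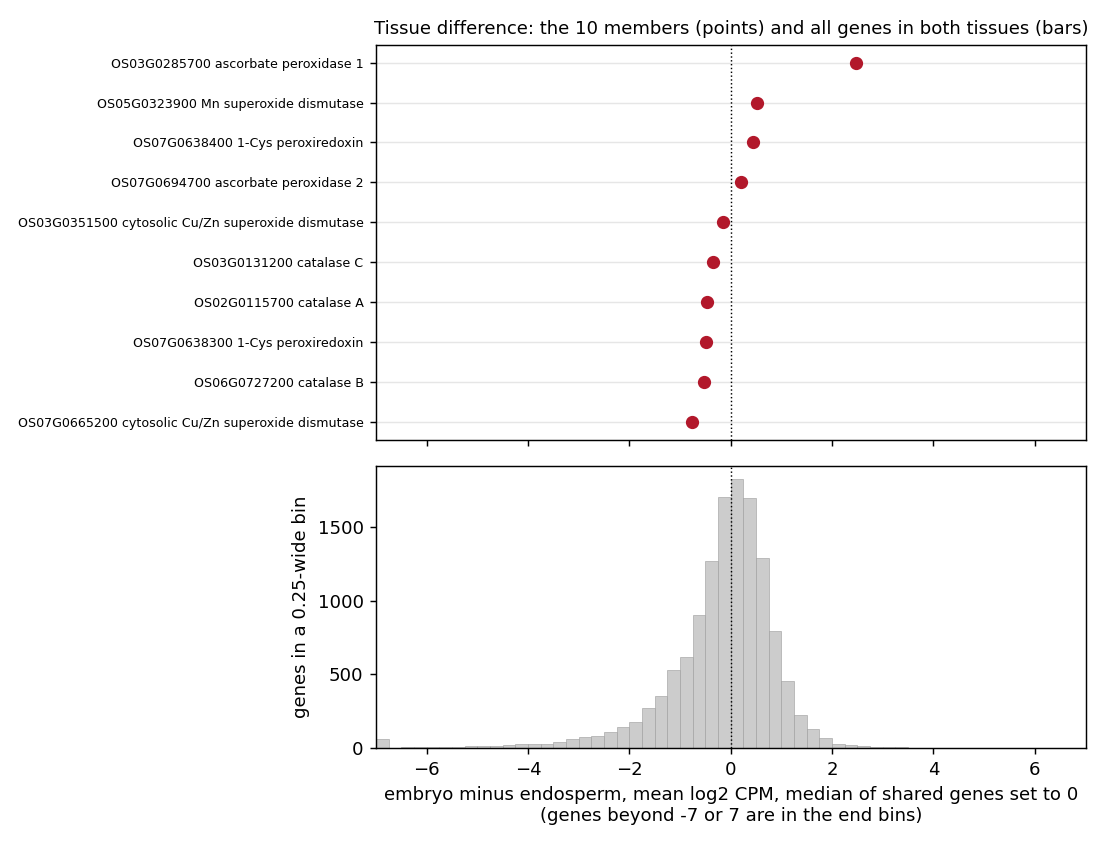
Embryo minus endosperm difference in mean log2 CPM after subtraction of the median over shared genes (horizontal axis), with the 10 genes as points in the upper panel and the number of genes per bin for all 13166 shared genes in the lower panel. OS03G0285700 stands at 2.48, and the other 9 members lie between -0.76 and 0.52, within the bulk of the distribution.

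Superoxide dismutases act first. OS03G0351500, a cytosolic Cu/Zn superoxide dismutase, had a mean log2 CPM of 8.47 in embryo and 7.29 in endosperm, a centred difference of -0.14. OS07G0665200, the other cytosolic Cu/Zn enzyme, had 9.01 in embryo and 8.45 in endosperm, and its centred difference of -0.76 was the lowest of the 10 genes. The manganese enzyme belongs to the mitochondrion, where respiration releases superoxide. This gene, OS05G0323900, had 8.85 in embryo and 7.01 in endosperm, a centred difference of 0.52, and 22.2% of shared genes had a higher one. The reads of the 3 genes were thus divided differently between the tissues. OS05G0323900 took 34.7% of the summed CPM of the 3 in embryo and 20.3% in endosperm, and OS07G0665200 took 38.7% in embryo and 55.0% in endosperm.

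The ratio between a pair of genes within a tissue is unchanged by a factor applied to all genes of that tissue. Scaling among the libraries averaged into each value can still affect it. Gene length cancels when the ratio is compared between tissues. For OS07G0665200 over OS05G0323900, the log2 ratio was 0.16 in embryo and 1.44 in endosperm, a change of -1.28, or 2.43-fold. OS07G0665200 and OS05G0323900 thus had similar numbers of reads in embryo, whereas OS07G0665200 had more in endosperm. The ratio of the Cu/Zn pair, OS03G0351500 over OS07G0665200, was -0.54 in embryo and -1.16 in endosperm, a change of 0.62.

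Ratios among the catalases differed less between the tissues. OS02G0115700, catalase A, had a mean log2 CPM of 6.65 in embryo and 5.80 in endosperm. OS06G0727200, catalase B, had 9.74 in embryo and 8.94 in endosperm, and OS03G0131200, catalase C, had 6.82 in embryo and 5.84 in endosperm. Their centred differences were close together, at -0.47, -0.52 and -0.34. Catalase B held 80.1% of the summed catalase CPM in embryo and 81.3% in endosperm. Among the 3 pairs of catalases, the largest change in log2 ratio between the tissues was -0.18, for catalase B over catalase C. Whether this change, or any change in ratio given for the other families, exceeds the spread between libraries cannot be said from means.

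The ascorbate peroxidase pair held the widest tissue difference among the 10 genes. OS03G0285700, ascorbate peroxidase 1, had a mean log2 CPM of 9.62 in embryo and 5.82 in endosperm, which is 786.7 CPM in embryo and 56.5 CPM in endosperm. Its centred difference was 2.48, or 5.57-fold, and 47 of the 13166 shared genes (0.357%) had a higher one. OS07G0694700, ascorbate peroxidase 2, had 7.33 in embryo and 5.81 in endosperm, a centred difference of 0.20, and 39.2% of shared genes lay above it. In endosperm the genes had nearly the same number of reads, with a log2 ratio of 0.01 for ascorbate peroxidase 1 over 2, whereas in embryo this ratio was 2.29. The change of 2.28, or 4.86-fold, was the widest of the 8 pairs within the 4 families. Ascorbate peroxidase 1 took 83.1% of the CPM of the pair in embryo and 50.2% in endosperm.

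**Figure D3:**
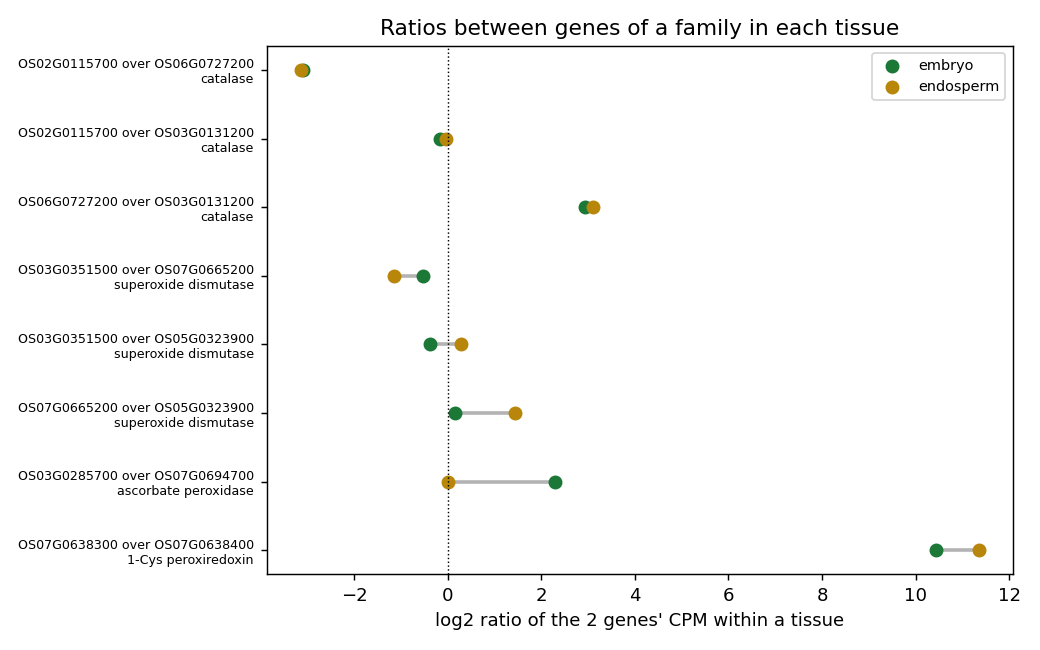
Log2 ratio of CPM (horizontal axis) for the 8 pairs of genes within a family, 1 row per pair, in embryo (green) and endosperm (gold), with 0 where both genes have equal CPM. The ascorbate peroxidase pair is at 2.29 in embryo and 0.01 in endosperm, while the points of each catalase pair nearly coincide.

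The 1-Cys peroxiredoxins made up most of the reads of the 10 genes and were also the most unequal pair. OS07G0638300 had a mean log2 CPM of 13.16 in embryo and 12.32 in endosperm, or 9155 CPM in embryo and 5111 CPM in endosperm. Its centred difference was -0.48, and 72.0% of shared genes had a higher one. All 10 genes together summed to 12513 CPM in embryo and 6465 CPM in endosperm. Without OS07G0638300 the sums were 3358 CPM in embryo and 1355 CPM in endosperm. OS07G0638400, the other 1-Cys peroxiredoxin, had only 2.73 in embryo and 0.97 in endosperm, or 6.62 CPM in embryo and 1.96 CPM in endosperm. It was the gene with fewest reads among the 10 in both tissues, and the lowest mean log2 CPM listed for any gene was 0.05 in embryo and 0.27 in endosperm.

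The log2 ratio of OS07G0638300 over OS07G0638400 was 10.43 in embryo and 11.35 in endosperm. No other gene of the tables has an ID between these genes, so they follow each other in the ID order on chromosome 7. Whether they are alike in sequence was not examined. Reads shared by close copies can be assigned to either copy or dropped, and how the counting treated such reads is not given in the sources used here. The value of OS07G0638400 is therefore uncertain.

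The tissues were checked with gene IDs listed as markers of embryo and of starchy endosperm. Of the 5 endosperm markers, 4 were in both tissues, and these had centred differences of -8.92 to -5.51. The fifth, OS06G0133000, was in the endosperm tables alone, at a mean log2 CPM of 8.79. The 4 listed in embryo summed to 1009 CPM there, and all 5 summed to 186287 CPM in endosperm. The 5 embryo markers, listed as oleosins, the dehydrin Rab16A, VP1 and an Em-type LEA protein, were less distinct. All were in both tissues. On the centred scale, 1 was at least 2-fold higher in embryo, as were 7.41% of shared genes. Another 1, OS03G0699000, was at least 2-fold lower, as were 15.8% of shared genes. The 5 had centred differences of -1.26 to 1.84 and a median of -0.69. Their sum was 8458 CPM in embryo and 4295 CPM in endosperm. On the centred scale, the embryo list as a set thus did not separate the tissues. In the deposited values, each of the 5 was higher in embryo. The gap was smallest for OS03G0699000, at 9.95 in embryo and 9.89 in endosperm, and widest for OS05G0349800, at 11.60 and 8.44. Transcripts of the embryo list were well represented in the libraries labelled endosperm. Whether these came from embryo material or from cells of the endosperm itself, such as the aleurone, was not tested. Their part in the endosperm levels of the antioxidant genes was not tested either. Nor was the source of the endosperm marker transcripts in the libraries labelled embryo, or their part in the embryo levels. In bulk tissue, fewer cells of a type and less RNA per cell cannot be told apart.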

How the data were processed

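Messenger RNA libraries of rice embryo and endosperm were sequenced. According to the methods of the study, reads were trimmed by the authors with Trimmomatic, aligned to the IRGSP reference with HISAT2 and counted with featureCounts. The authors scaled the CPM values using trimmed means of M-values and tested with edgeR. The 6 deposited tables give, per gene, a mean log2 CPM and the log2 fold change, p-value and false discovery rate of the authors' comparison of the accessions. The fold change, p-value and false discovery rate columns hold the authors' own findings and were not used. The gene filter is not given in the sources used here.

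The mean log2 CPM was checked to be identical in the 3 tables of a tissue. Embryo minus endosperm was computed for 13166 genes present in both tissues and centred on its median (numpy 2.4.6, pandas 2.3.3). CPM is 2 to the power of the mean log2 CPM. How the authors averaged over libraries is not given in the sources used here. Over all genes listed, these CPM summed to 1026213 in embryo and 1032593 in endosperm. No hypothesis test was possible on means, and no library could be left out. All 10 members are named. Members, marker IDs and lists were chosen with earlier results of these data known. Alternatives were no centring, centring on genes at 3 or more in both tissues, a pseudocount of 1 CPM, and, chosen after seeing the data, rescaling without the 10 genes with the highest CPM in each tissue. Of 17780 gene IDs, 0 were found in the reference gene table, so planned work on gene lengths, promoters, proteins and a wider antioxidant list was not run.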

Additional observations from a re-analysis of the deposited data

How the results depend on the processing

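The sign of most differences between embryo and endosperm depends on the scaling between tissues. Without centring, OS02G0115700 was at 0.85, OS06G0727200 at 0.80, OS03G0131200 at 0.98, OS03G0351500 at 1.18, OS07G0665200 at 0.56 and OS07G0638300 at 0.84, all of them below 0 when centred. The median of the 10 genes was then 1.08, and 5 genes were at least 2-fold higher in embryo, as were 65.8% of all shared genes. When both tissues were rescaled without the 10 genes with the highest CPM, OS02G0115700 was at 0.21, OS06G0727200 at 0.15, OS03G0131200 at 0.33, OS03G0351500 at 0.53 and OS07G0638300 at 0.19. The median was 0.43, and 3 genes were at least 2-fold higher in embryo, as were 31.9% of shared genes. These settings shift every gene by 1 constant, so they leave the order of the genes and the ratios within families as they were. OS03G0285700 was at 3.80 without centring and at 3.15 after that rescaling. With the median over genes at a mean log2 CPM of at least 3, or with a pseudocount of 1 CPM, each of the 10 genes kept its sign and moved by less than 1.5-fold. No paired analysis was possible because the values are means over libraries. Depth and the spread between libraries are unknown.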
